A study of Mus musculus with 10 samples.

Results

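The mitosis and G2/M genes described here are 42 protein-coding genes whose products prepare a cell for division, build the spindle, attach and separate the chromosomes and split the cytoplasm. They were taken by symbol from a list of mitosis genes that was chosen with earlier results of these data known, and each symbol matched 1 gene among the 53465 genes of the deposited count files. All 42 were among the 13182 genes with enough counts to be tested, with no member lost to the filter on low counts. They lie on 17 chromosomes.

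Polyadenylated RNA was sequenced from CD8 T cells of C57BL/6 mice with the OT-I genotype, in which a transgenic T cell receptor recognises an ovalbumin peptide. Cells from spleens and peripheral lymph nodes were activated with the SIINFEKL peptide at 100 ng/ml and recombinant human interleukin-2 at 100 U/ml in 25 mM glucose, and after 3 days they were moved to 1 mM glucose. Every group received PMA, a phorbol ester, together with ionomycin over the last 4 h of culture. The 10 libraries form 4 groups of the same strain, genotype and peptide activation. The d9 group with acetate (n = 3) had 120 h of restriction with 5 mM sodium acetate on the last day, and the d9 group without acetate (n = 3) had 120 h of restriction alone. The d5 group with acetate (n = 2) had 24 h of restriction with 5 mM sodium acetate throughout, and the d5 group without acetate (n = 2) had 24 h of restriction alone. The labels name the groups d5 and d9, although 3 days of activation and 24 or 120 h of restriction give a shorter culture. Cells were washed and replated daily in fresh medium with interleukin-2. Cells kept in 25 mM glucose are not analysed here, and time in culture cannot be told apart from time in low glucose.

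In mammalian cells, entry into mitosis is driven by cyclin-dependent kinase 1 (CDK1) bound to A and B type cyclins, and exit follows when the anaphase-promoting complex marks the cyclins and securin for destruction. Most mitotic genes are transcribed late in the cycle: the DREAM complex represses them in resting cells, and MuvB with MYBL2 and FOXM1 activates them in G2. Activated CD8 T cells divide rapidly after antigen and interleukin-2, so transcripts of these genes are widely used as a sign of proliferation in T cell cultures.

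The promoters of these genes are shown for the letters they share. The motifs searched were TTTGAA and TTCGAA, the letters of the cell cycle gene homology region that MuvB complexes are known to contact, and CCAAT, the letters bound by the factor NF-Y. Both strands were searched over 250 bases before and 50 bases after the annotated start, in RefSeq windows of the GRCm38.p6 build. TTCGAA reads the same on both strands, and TTTGAA and TTCGAA differ at 1 base, so no position can match both. The window of Cdk1, the kinase, is chr10:69352863-69353162 (minus strand), and those of its partners Ccnb1 and Ccnb2 are chr13:100786437-100786736 (minus strand) and chr9:70421505-70421804 (minus strand). The window of Plk1, which encodes a mitotic kinase, is chr7:122159185-122159484 (plus strand), and that of Cdc20, an activator of the anaphase-promoting complex, is chr4:118437294-118437593 (minus strand). Cenpf (chr1:189688037-189688336, minus strand) and Nusap1 (chr2:119618048-119618347, plus strand) had the largest differences between d9 and d5. Capitals mark the matches, and ATTGG is CCAAT on the other strand.
Cdk1: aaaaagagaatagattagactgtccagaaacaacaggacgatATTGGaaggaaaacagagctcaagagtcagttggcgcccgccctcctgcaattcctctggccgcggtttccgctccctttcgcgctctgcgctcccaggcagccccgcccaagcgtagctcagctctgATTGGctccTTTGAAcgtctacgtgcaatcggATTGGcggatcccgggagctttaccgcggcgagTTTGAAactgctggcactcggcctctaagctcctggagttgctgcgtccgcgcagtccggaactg
Ccnb1: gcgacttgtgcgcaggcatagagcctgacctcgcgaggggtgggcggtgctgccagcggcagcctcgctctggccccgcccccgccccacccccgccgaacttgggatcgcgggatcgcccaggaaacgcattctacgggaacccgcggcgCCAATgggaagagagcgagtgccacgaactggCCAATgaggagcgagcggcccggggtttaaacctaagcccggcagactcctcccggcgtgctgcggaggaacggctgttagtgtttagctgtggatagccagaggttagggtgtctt
Ccnb2: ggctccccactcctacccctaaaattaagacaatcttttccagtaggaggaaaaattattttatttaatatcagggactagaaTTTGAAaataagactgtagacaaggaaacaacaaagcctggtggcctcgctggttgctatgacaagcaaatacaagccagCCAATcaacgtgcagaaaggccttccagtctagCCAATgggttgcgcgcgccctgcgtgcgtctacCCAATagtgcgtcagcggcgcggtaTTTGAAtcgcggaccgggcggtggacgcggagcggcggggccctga
Plk1: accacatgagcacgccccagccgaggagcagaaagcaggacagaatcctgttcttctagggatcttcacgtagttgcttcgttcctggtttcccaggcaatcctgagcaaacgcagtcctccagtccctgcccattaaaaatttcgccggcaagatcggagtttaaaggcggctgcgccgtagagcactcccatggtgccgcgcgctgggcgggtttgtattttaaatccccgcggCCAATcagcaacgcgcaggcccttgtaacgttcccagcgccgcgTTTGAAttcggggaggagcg
Cdc20: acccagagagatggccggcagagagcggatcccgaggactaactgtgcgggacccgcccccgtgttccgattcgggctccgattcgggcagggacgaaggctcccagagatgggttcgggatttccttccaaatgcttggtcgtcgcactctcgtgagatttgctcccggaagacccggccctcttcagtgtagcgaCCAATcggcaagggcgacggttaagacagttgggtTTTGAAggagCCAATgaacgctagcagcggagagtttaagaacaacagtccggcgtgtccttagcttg
Cenpf: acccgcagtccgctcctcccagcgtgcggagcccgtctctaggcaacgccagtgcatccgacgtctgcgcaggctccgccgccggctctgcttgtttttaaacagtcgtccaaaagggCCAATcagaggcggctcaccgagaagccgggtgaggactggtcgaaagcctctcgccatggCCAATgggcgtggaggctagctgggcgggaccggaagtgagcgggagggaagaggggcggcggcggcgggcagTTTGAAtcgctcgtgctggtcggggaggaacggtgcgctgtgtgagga
Nusap1: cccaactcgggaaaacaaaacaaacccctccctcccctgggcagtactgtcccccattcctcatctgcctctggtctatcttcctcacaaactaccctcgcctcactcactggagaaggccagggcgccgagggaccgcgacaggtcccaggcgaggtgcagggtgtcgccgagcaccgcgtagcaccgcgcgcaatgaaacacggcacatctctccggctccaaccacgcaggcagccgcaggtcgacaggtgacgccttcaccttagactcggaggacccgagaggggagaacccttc
The windows of Cdk1, Ccnb2, Plk1, Cdc20 and Cenpf hold both TTTGAA and CCAAT, the Ccnb1 window holds CCAAT alone, and the Nusap1 window holds neither. The first base of the TTTGAA nearest to the start lies 15 bases before it in Cdk1 and 18 bases before it in Cdc20. In Ccnb2, Cenpf and Plk1 it is base 5, 3 and 31 of the transcript.

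Of the 42 genes, 33 had a window in the table, with 35 windows in all since Ect2 and Prc1 have 2 each. The other 9 are Aurkb, Ccna2, Cdc25c, Dlgap5, Incenp, Kif20a, Pbk, Smc4 and Tpx2. TTTGAA or TTCGAA was found within 50 bases of the start in 27 of the 35 windows (77.1%), against 3.74% of the 12090 windows of tested genes and 5.51% of all 32851 windows. Anywhere in the window, TTTGAA or TTCGAA was held by 85.7% of the members' windows, against 13.8% of those of tested genes and 19.2% of all. CCAAT was held by 80.0% of the members' windows, against 37.7% of those of tested genes and 37.4% of all. At least 2 CCAAT matches were held by 57.1% of the members' windows, against 14.1% and 11.7%. These shares describe letters only and carry no test, and a match was not taken as a bound site. Of the genes described most fully below, Nusap1, Nuf2 and Birc5 held none of the 3 motifs, and Ccnb1 and Cenpe held CCAAT alone.

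The labelled cell type was checked against its markers. The summed level of 9 T cell and CD8 transcripts (Cd3d, Cd3e, Cd3g, Cd247, Cd8a, Cd8b1, Trac, Lck and Zap70) was 2745 to 3942 CPM (counts per 1000000 counts of a library, scaled by TMM factors) across the 10 libraries, and none of the 9 was at 0. The B cell list (6 genes) summed to 0.801 to 1.83 CPM at d9 in either acetate state, 3.25 to 5.15 CPM at d5 with acetate and 1.16 to 1.69 CPM at d5 without. The monocyte and macrophage list (5 genes) summed to 6.14 to 6.70 CPM at d9 with acetate, 8.01 to 10.4 CPM at d9 without, 4.68 to 6.45 CPM at d5 with acetate and 9.43 to 12.4 CPM at d5 without. The dendritic cell list (4 genes) summed to at most 0.421 CPM and the granulocyte list (4 genes) to at most 1.25 CPM. Clec9a, Siglech, S100a8, S100a9 and Elane were at 0 in every library. Cd4 was at 0.682 to 0.825 CPM at d9 with acetate, 1.10 to 1.70 CPM at d9 without, 0.368 to 0.504 CPM at d5 with acetate and 0.234 to 0.331 CPM at d5 without. The list used for stromal and endothelial cells held Col1a1, Pdgfrb, Cdh5 and Epcam. These summed to 7.29 to 7.71 CPM at d9 with acetate and 11.4 to 14.02 CPM at d9 without. Their sums at d5 were 9.14 to 10.6 CPM with acetate and 19.0 to 19.9 CPM without. The NK cell list (Ncr1 and Klrb1c) summed to 18.3 to 25.9 CPM at d9 with acetate, 9.05 to 13.8 CPM at d9 without, 5.21 to 6.05 CPM at d5 with acetate and 1.23 to 1.82 CPM at d5 without. The part of these lists in the differences below was not tested.

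Total counts ranged over 22966098 to 24659226 in the d9 libraries and 16588023 to 17971480 in the d5 libraries. In a principal component analysis, d9 and d5 separated on the first axis (64.9% of variance). On the second axis (10.6%), replicate 1 of d9 without acetate and replicate 2 of d9 with acetate lay apart from the other d9 libraries, and ribosomal protein genes took 15.4% and 15.1% of their counts, against 11.2 to 12.7% for the remaining d9 libraries. That axis also separated d5 with acetate (-18.6 and -35.9) from d5 without (19.7 and 32.2). Mitochondrially encoded genes took 0.467 to 0.532% of counts at d9 with acetate, 0.347 to 0.483% at d9 without, 1.10 to 1.12% at d5 with acetate and 0.781 to 0.797% at d5 without. The part of these shares in the differences below was not tested. Replicates differed by more than counting noise, with a chi-square per degree of freedom of 6.00 to 76.5. The labels do not say whether replicates were separate cultures or animals, so p-values measure the spread between these samples, which may be technical.

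All 42 genes were lower at d9 than at d5, with acetate and without it, by edgeR's quasi-likelihood test at 0.05 after Benjamini-Hochberg adjustment over all tested genes. With acetate, 23.1% of the 13182 tested genes were called lower at d9 and 41.6% were called in either direction. Without acetate, 21.2% were called lower and 37.1% in either direction. The median log2 fold change of the 42 genes, d9 over d5, was -2.25 with acetate and -2.38 without, while the median over all tested genes was -0.01 in both. A fall of over 4-fold was called for 26 members with acetate and for 31 without, against 3.54% and 3.83% of all tested genes. In bulk RNA, fewer dividing cells and less of these transcripts per cell cannot be told apart.

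For each of the 42 genes, every d9 library lay below every d5 library of the same acetate state. A complete separation in this direction was seen for 33.4% of all tested genes in each of these comparisons. Without the pair of d9 libraries that lie apart, all 42 were again called lower in both comparisons, with medians of -2.24 with acetate and -2.24 without. Summed over the 42 genes, levels were 776, 1000.1 and 1191 CPM at d9 with acetate and 866, 1162 and 1478 CPM at d9 without. The sums at d5 were 4400 and 3833 CPM with acetate, and 4928 and 5979 CPM without. The d9 mean of 989 ± 207 CPM with acetate (SD, n = 3) was 4.16-fold lower than the d5 mean of 4116 ± 401 CPM (n = 2), and the d9 mean of 1168 ± 306 CPM without acetate (n = 3) was 4.67-fold lower than the d5 mean of 5453 ± 744 CPM (n = 2).

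**Figure D1:**
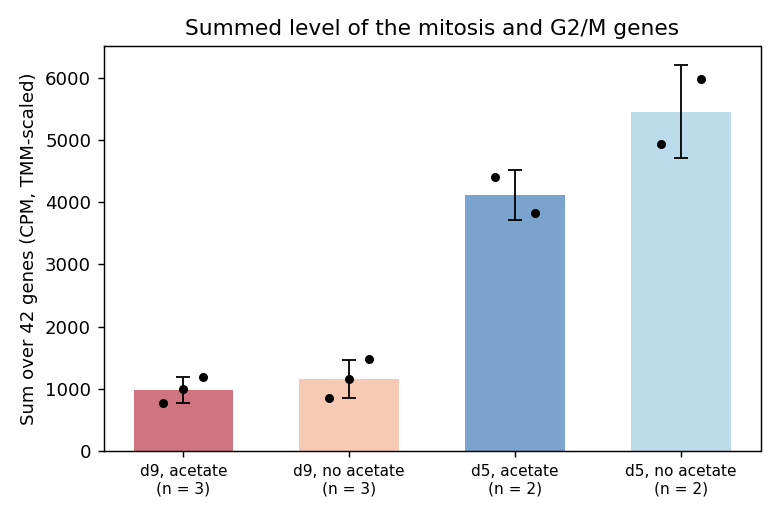
Summed level of the 42 mitosis and G2/M genes in each library (points, in CPM scaled by TMM factors), with the group mean (bar) and SD (error bar). The 6 d9 libraries sit between 776 and 1478 CPM and the 4 d5 libraries between 3833 and 5979 CPM.

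**Figure D2:**
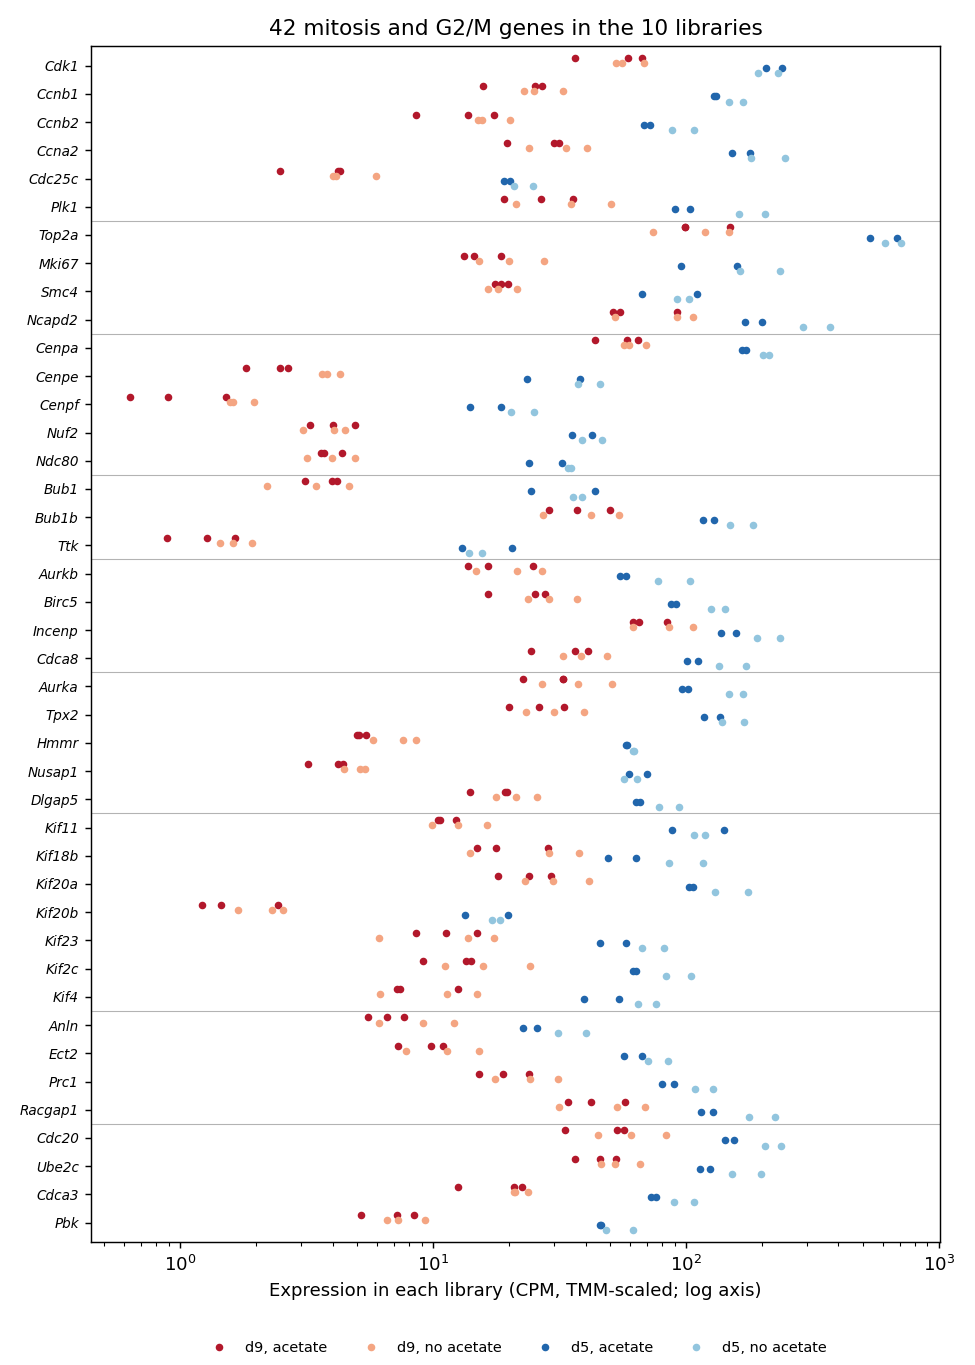
Level of each of the 42 genes in each of the 10 libraries (CPM scaled by TMM factors, log axis), grouped by role from the CDK1 kinase and cyclins at the top to the partners of the anaphase-promoting complex at the bottom. For every gene the d9 points (reds) lie left of the d5 points of the same acetate state (blues), and the gap is wide for Nusap1, Cenpf and Ttk and narrow for Incenp.

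The kinase that starts mitosis and its cyclins fell together. Cdk1, the kinase itself, was at 36.2, 66.8 and 59.0 CPM in the d9 libraries with acetate and 52.9, 55.9 and 67.9 CPM in those without, against 207 and 238 CPM in the d5 libraries with acetate and 192 and 231 CPM in those without. All d9 libraries lay below all d5 libraries, and acetate and no acetate overlapped at each day. Cdk1 was 4.12-fold lower at d9 with acetate (log2 -2.04 ± 0.22, SE, edgeR adjusted p = 8.13e-05) and 3.58-fold lower without (log2 -1.84 ± 0.22, adjusted p = 1.44e-04). Ccnb1, which encodes cyclin B1, was at 15.7, 27.0 and 25.3 CPM in the d9 libraries with acetate and 22.9, 25.0 and 32.6 CPM in those without, against 128 and 131 CPM in the d5 libraries with acetate and 147 and 167 CPM in those without. It was 5.73-fold lower at d9 with acetate (edgeR adjusted p = 2.20e-05) and 5.86-fold lower without (adjusted p = 1.85e-05), with no overlap between the days. Ccnb2, the gene of cyclin B2, was at 8.51, 13.7 and 17.4 CPM in the d9 libraries with acetate and 15.05, 15.6 and 20.2 CPM in those without, against 72.1 and 67.9 CPM in the d5 libraries with acetate and 87.8 and 107 CPM in those without. This was 5.30-fold lower at d9 with acetate (edgeR adjusted p = 5.63e-05) and 5.75-fold lower without (adjusted p = 3.91e-05).

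Ccna2, which encodes the cyclin A that acts in S phase and G2, stood at 19.6, 30.0 and 31.5 CPM in the d9 libraries with acetate and 24.0, 33.4 and 40.6 CPM in those without, against 179 and 152 CPM in the d5 libraries with acetate and 181 and 245 CPM in those without. The difference was 6.12-fold with acetate (edgeR adjusted p = 3.43e-05) and 6.53-fold without (adjusted p = 2.61e-05), lower at d9 in both. Plk1, a kinase that acts in centrosome maturation and mitotic exit, was at 19.1, 26.6 and 35.6 CPM in the d9 libraries with acetate and 21.3, 35.1 and 50.5 CPM in those without, against 104 and 90.4 CPM in the d5 libraries with acetate and 162 and 205 CPM in those without. The days did not overlap, and at d5 both acetate libraries were below both libraries without it. Plk1 was 3.59-fold lower at d9 with acetate (log2 -1.84 ± 0.32, SE, edgeR adjusted p = 0.00136) and 5.15-fold lower without (log2 -2.37 ± 0.32, adjusted p = 3.52e-04). Cdc25c, the phosphatase that activates CDK1, averaged 3.65 ± 1.01 CPM at d9 with acetate and 4.69 ± 1.07 CPM at d9 without (SD, n = 3 each), against 19.6 ± 0.729 CPM at d5 with acetate and 22.8 ± 2.77 CPM at d5 without (n = 2 each). It was past the threshold in both acetate states.

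Among the genes of chromosome structure and proliferation marks, Mki67 fell most. Mki67, which encodes the Ki-67 protein that coats mitotic chromosomes and is used to stain dividing cells, was at 13.2, 18.5 and 14.5 CPM in the d9 libraries with acetate and 15.2, 19.9 and 27.4 CPM in those without, against 159 and 95.1 CPM in the d5 libraries with acetate and 163 and 235 CPM in those without. It was 8.25-fold lower at d9 with acetate (log2 -3.04 ± 0.28, SE, edgeR adjusted p = 3.40e-05) and 9.54-fold lower without (log2 -3.25 ± 0.28, adjusted p = 2.14e-05). Top2a, the topoisomerase that untangles sister DNA, had the highest CPM of the 42 in every library, at 98.8, 98.7 and 148 CPM in the d9 libraries with acetate and 73.7, 119 and 147 CPM in those without, against 681 and 535 CPM in the d5 libraries with acetate and 614 and 710.0 CPM in those without. Its d9 values were 5.27-fold below d5 with acetate (edgeR adjusted p = 9.51e-05) and 5.85-fold below without (adjusted p = 6.54e-05). The condensin subunits Smc4 and Ncapd2 were called lower too, with log2 fold changes of -2.25 and -1.49 with acetate and -2.39 and -1.98 without. Exons of Top2a and Ncapd2 overlap annotated genes on the same strand (Gm23451 for Top2a, and Gm28967 and Scarna10 for Ncapd2), so their counts may be split.

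Genes of the centromere and kinetochore, where chromosomes attach to microtubules, had the largest median fall of the 9 roles. Cenpf (ENSMUSG00000026605, GRCm38 chr1:189640606-189688086, minus strand), a large protein of the outer kinetochore and nuclear matrix, was at 0.632, 1.51 and 0.895 CPM in the d9 libraries with acetate and 1.61, 1.57 and 1.96 CPM in those without, against 18.5 and 13.9 CPM in the d5 libraries with acetate and 20.3 and 25.1 CPM in those without. The highest d9 library was at 1.96 CPM and the lowest d5 library at 13.9 CPM, and the lowest library held 15 reads of this gene. The difference was 16.0-fold with acetate (log2 -4.00 ± 0.28, SE, edgeR adjusted p = 6.91e-06) and 13.2-fold without (log2 -3.72 ± 0.26, adjusted p = 6.77e-06). Cenpe, the kinetochore motor that carries chromosomes to the spindle equator, was at 1.81, 2.66 and 2.47 CPM in the d9 libraries with acetate and 3.63, 3.81 and 4.26 CPM in those without, against 38.1 and 23.5 CPM in the d5 libraries with acetate and 37.4 and 45.6 CPM in those without. It was 13.3-fold lower at d9 with acetate (edgeR adjusted p = 3.87e-06) and 10.6-fold lower without (adjusted p = 4.04e-06). Nuf2, a subunit of the NDC80 complex that grips microtubules, was at 3.25, 4.03 and 4.90 CPM in the d9 libraries with acetate and 3.05, 4.06 and 4.48 CPM in those without, against 42.5 and 35.3 CPM in the d5 libraries with acetate and 38.7 and 46.3 CPM in those without. Its difference was 9.57-fold with acetate (edgeR adjusted p = 3.87e-06) and 10.98-fold without (adjusted p = 2.88e-06).

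Ndc80, the partner of Nuf2, fell by 2.85 on the log2 scale with acetate and by 3.10 without. Cenpa, the histone variant that marks the centromere, fell less, by 1.61 with acetate and by 1.74 without on the same scale. The median log2 fold change of the 5 centromere and kinetochore genes was -3.26 with acetate and -3.41 without, beside -2.25 and -2.38 over the 42.

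The spindle checkpoint kinases delay anaphase until all chromosomes are attached. Ttk, the kinase that starts checkpoint signalling, was at 0.885, 1.65 and 1.28 CPM in the d9 libraries with acetate and 1.43, 1.61 and 1.91 CPM in those without, against 20.5 and 12.9 CPM in the d5 libraries with acetate and 13.8 and 15.6 CPM in those without. It was 13.1-fold lower at d9 with acetate (log2 -3.71 ± 0.27, SE, edgeR adjusted p = 7.93e-06) and 8.86-fold lower without (log2 -3.15 ± 0.26, adjusted p = 1.60e-05). Bub1, which works with it at kinetochores, was at 3.12, 3.98 and 4.18 CPM in the d9 libraries with acetate and 2.19, 3.43 and 4.66 CPM in those without, against 43.7 and 24.4 CPM in the d5 libraries with acetate and 35.6 and 38.6 CPM in those without. It was 9.04-fold lower at d9 with acetate (edgeR adjusted p = 3.40e-05) and 10.8-fold lower without (adjusted p = 2.11e-05). Bub1b, which encodes the checkpoint protein BUBR1, averaged 38.6 ± 10.8 CPM and 41.1 ± 13.5 CPM at d9 with and without acetate, against 123 ± 8.24 CPM and 166 ± 24.5 CPM at d5 with and without acetate (SD). Its differences of 3.18-fold with acetate and 4.05-fold without were smaller than those of Ttk and Bub1, a comparison between genes that was not tested.

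The 4 genes of the chromosomal passenger complex, which corrects faulty attachments and then guides cytokinesis, fell less than most. Aurkb, its kinase, was at 13.7, 16.5 and 24.9 CPM in the d9 libraries with acetate and 14.8, 21.4 and 27.0 CPM in those without, against 57.8 and 54.8 CPM in the d5 libraries with acetate and 77.7 and 104 CPM in those without. It was 3.07-fold lower at d9 with acetate (edgeR adjusted p = 9.81e-04) and 4.30-fold lower without (adjusted p = 2.20e-04). Birc5, which encodes survivin, the subunit that brings the complex to the centromere, was at 16.4, 27.8 and 25.4 CPM in the d9 libraries with acetate and 23.8, 28.7 and 37.0 CPM in those without, against 91.6 and 86.9 CPM in the d5 libraries with acetate and 125 and 143 CPM in those without. Its d9 values were 3.85-fold below d5 with acetate (edgeR adjusted p = 1.09e-04) and 4.49-fold below without (adjusted p = 5.47e-05). Incenp, the scaffold of the complex, had the smallest difference of the 42. It averaged 70.2 ± 12.2 CPM and 84.8 ± 22.5 CPM at d9 with and without acetate, against 147 ± 14.2 CPM and 212 ± 31.3 CPM at d5 with and without acetate (SD). Its log2 fold changes were -1.07 ± 0.21 with acetate and -1.32 ± 0.21 without (SE, edgeR adjusted p = 0.00269 and 8.46e-04). Cdca8, which encodes borealin, fell by 1.66 and 1.95 on the log2 scale with and without acetate. The median log2 fold change of the 4 genes was -1.64 with acetate and -2.03 without.

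The spindle assembly genes ranged more widely. Nusap1 (ENSMUSG00000027306, GRCm38 chr2:119618298-119651244, plus strand), a microtubule-bundling protein of the spindle, was at 3.203, 4.21 and 4.39 CPM in the d9 libraries with acetate and 5.15, 4.44 and 5.35 CPM in those without, against 70.2 and 59.2 CPM in the d5 libraries with acetate and 57.0 and 63.8 CPM in those without. The highest d9 library was at 5.35 CPM and the lowest d5 library at 57.0 CPM. Nusap1 was 16.4-fold lower at d9 with acetate (log2 -4.04 ± 0.17, SE, edgeR adjusted p = 8.41e-07) and 12.1-fold lower without (log2 -3.60 ± 0.16, adjusted p = 1.15e-06). Hmmr, a hyaluronan receptor that also binds spindle microtubules, was at 5.02, 5.08 and 5.41 CPM in the d9 libraries with acetate and 5.78, 7.62 and 8.53 CPM in those without, against 58.3 and 57.9 CPM in the d5 libraries with acetate and 62.2 and 61.7 CPM in those without. It was 11.2-fold lower at d9 with acetate (edgeR adjusted p = 8.41e-07) and 8.47-fold lower without (adjusted p = 1.15e-06), and its 4 d5 libraries lay within 57.9 to 62.2 CPM.

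Aurka, the kinase of the spindle poles, was at 22.7, 32.7 and 32.6 CPM in the d9 libraries with acetate and 26.9, 37.5 and 51.0 CPM in those without, against 102 and 96.5 CPM in the d5 libraries with acetate and 148 and 167 CPM in those without. It was 3.38-fold lower at d9 with acetate (edgeR adjusted p = 2.61e-04) and 4.10-fold lower without (adjusted p = 1.07e-04). Tpx2, which activates Aurora A kinase on the spindle, and Dlgap5, which stabilises spindle fibres, fell by 2.26 and 1.88 on the log2 scale with acetate and by 2.32 and 1.99 without.

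All 7 mitotic motors were lower at d9. Kif11, the motor that pushes the spindle poles apart, was at 10.4, 12.3 and 10.6 CPM in the d9 libraries with acetate and 9.90, 12.6 and 16.3 CPM in those without, against 142 and 88.3 CPM in the d5 libraries with acetate and 107 and 119 CPM in those without. It was 10.3-fold lower at d9 with acetate (log2 -3.37 ± 0.23, SE, edgeR adjusted p = 6.15e-06) and 8.74-fold lower without (log2 -3.13 ± 0.23, adjusted p = 7.31e-06). Kif20b, a motor of cytokinesis, fell by 3.28 on the log2 scale with acetate and by 3.02 without. Kif20a, Kif23, Kif2c and Kif4, motors of the central spindle and of chromosomes, had log2 fold changes between -2.38 and -2.14 with acetate and between -2.70 and -2.28 without. Kif18b, which shortens astral microtubules, differed least, at log2 -1.47 ± 0.37 with acetate and -1.92 ± 0.37 without (SE, edgeR adjusted p = 0.0103 and 0.00269). Between d9 and d5, Kif18b was also the single member that lost its call in any of the 17 alternatives run: with acetate, its adjusted p was 0.0819 without d5 acetate replicate 1 and 0.0733 with no filter on low counts.

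The cytokinesis genes and the partners of the anaphase-promoting complex completed the list. Racgap1, Prc1, Anln and Ect2, which organise the central spindle and the contractile ring, had log2 fold changes of -1.44, -2.14, -1.87 and -2.73 with acetate and -1.97, -2.28, -1.96 and -2.77 without. Cdc20, the activator that lets the complex act at anaphase, was at 33.2, 53.3 and 57.0 CPM in the d9 libraries with acetate and 44.7, 60.3 and 83.0 CPM in those without, against 154 and 143 CPM in the d5 libraries with acetate and 204 and 236 CPM in those without. It was 3.11-fold lower at d9 with acetate (edgeR adjusted p = 6.82e-04) and 3.51-fold lower without (adjusted p = 4.08e-04). Ube2c, the ubiquitin-conjugating enzyme that works with the complex, was at 36.2, 45.7 and 52.8 CPM in the d9 libraries with acetate and 46.3, 52.2 and 65.7 CPM in those without, against 113 and 124 CPM in the d5 libraries with acetate and 152 and 197 CPM in those without. Its d9 values were 2.65-fold below d5 with acetate (edgeR adjusted p = 2.67e-04) and 3.198-fold below without (adjusted p = 9.30e-05). Cdca3, a factor linked to mitotic entry, fell by 2.00 and 2.17 on the log2 scale with and without acetate, and Pbk, a mitotic kinase, by 2.73 and 2.83.

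**Figure D3:**
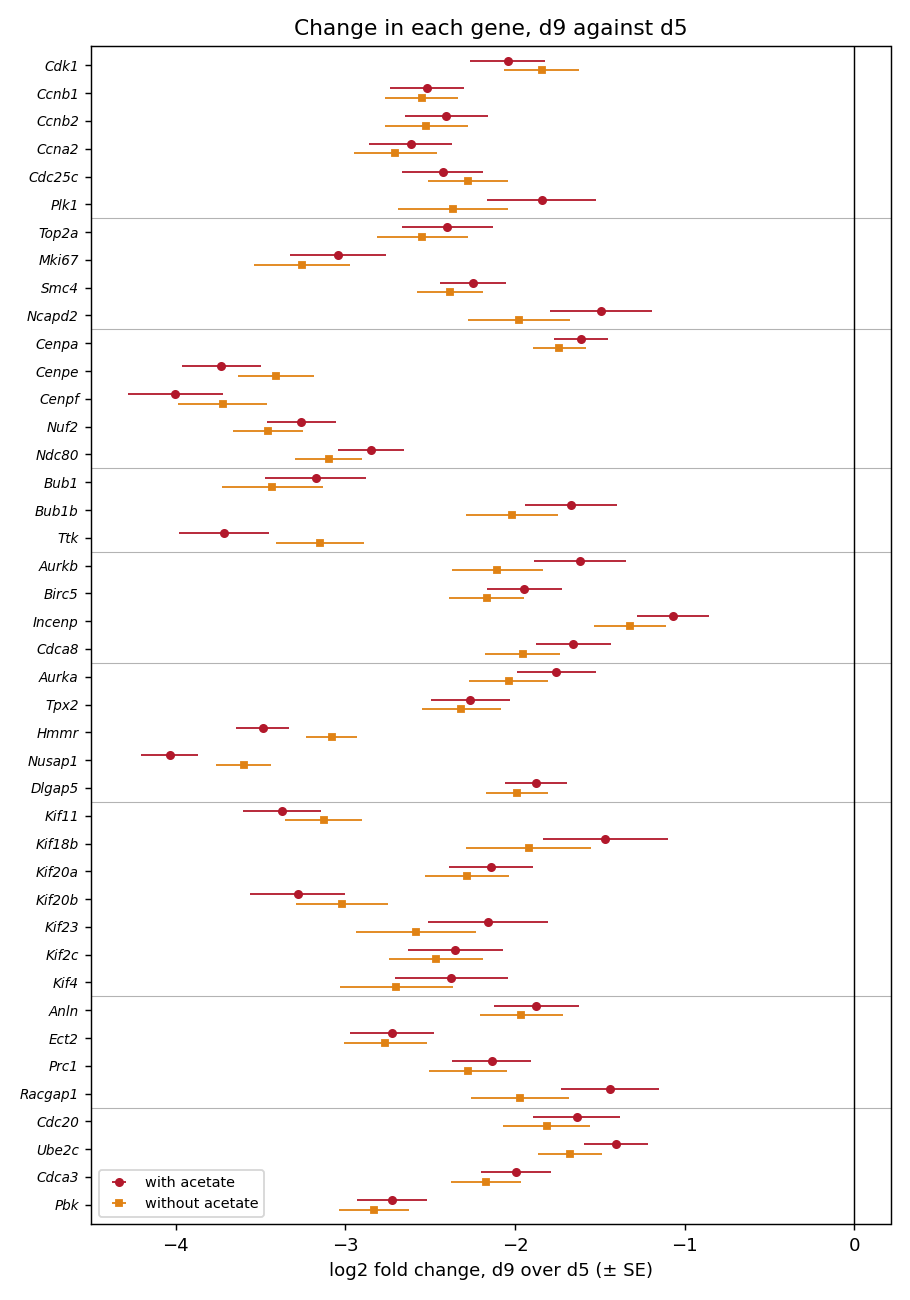
Log2 fold change of each of the 42 genes, d9 over d5, with acetate (red circles) and without (orange squares), with bars of 1 SE and genes grouped by role. All points lie left of 0, from -4.04 for Nusap1 with acetate to -1.07 for Incenp with acetate.

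The 42 genes kept nearly the same order of fall in both acetate states. Across the genes, Pearson's r between the log2 fold changes with and without acetate was 0.955 and Spearman's rho was 0.942 (n = 42 genes that share their libraries and are not independent). A fall of over 8-fold was called for 10 of the 42 genes with acetate and for 11 without, against 1.24% and 1.56% of all tested genes. Genes with longer exons tended to fall more: r with exon length was -0.406 with acetate and -0.410 without, and rho was -0.306 and -0.295 (n = 42 genes). Exons of 10 members (Ccna2, Cdc25c, Plk1, Cdca8, Nusap1, Kif20a, Kif4, Prc1, Cdc20 and Ube2c) overlap a gene on the opposite strand. Whether the counting used strand is not stated in the labels, and reads of these genes and of their overlapping neighbours may not be separated.

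Levels per length gave another order of the genes. On the scale of mean CPM per kilobase of exon, Cdc20 was the highest of the 42 in all 4 groups, at 25.6 and 33.5 at d9 with and without acetate, against 79.6 and 118 at d5 with and without acetate. Cenpf was the lowest in all 4, at 0.0656 and 0.111 at d9 with and without acetate, against 1.05 and 1.47 at d5 with and without acetate. Kif20b was next to the lowest in every group. Nusap1 was in place 32 and 33 of 42 at d9 with and without acetate, and in place 23 and 27 at d5 with and without acetate. Incenp was in place 3 in both d9 groups and in place 9 in both d5 groups.

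At d9, acetate on the last day addressed whether late acetate moves these genes after 120 h of low glucose. None of the 42 genes was called in the edgeR test, which called 0.0303% of all tested genes (4 of 13182). An unadjusted p under 0.05 was held by 3 of the 42 members, against 2026 of the 13182 tested genes. DESeq2 called 0 members and 310 genes in all. The median log2 fold change, acetate over no acetate, was -0.29 over the members and 0.01 over all tested genes. The fitted change was negative for 38 of the 42, against 49.0% of all tested genes, with Bub1, Nuf2, Top2a and Smc4 as the exceptions. Leaving out 1 library moved the median most to -0.08 (without replicate 3 of no acetate), -0.15 (without acetate replicate 1) and -0.43 (without replicate 1 of no acetate). Every acetate library lay below every library without acetate for 4 genes (Cenpe, Cenpf, Hmmr and Nusap1), against 8.79% of all tested genes. That is 4 of 42 members, a share near the background.

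The 3 members of smallest p at d9 did not pass the adjusted threshold. Hmmr averaged 5.17 ± 0.213 CPM with acetate and 7.31 ± 1.40 CPM without (SD, n = 3 each), a log2 fold change of -0.50 ± 0.15 (SE, edgeR adjusted p = 0.179). Cenpe averaged 2.31 ± 0.444 CPM and 3.90 ± 0.328 CPM with and without acetate, at log2 -0.75 ± 0.23 (edgeR adjusted p = 0.187). Cenpf averaged 1.01 ± 0.451 CPM and 1.71 ± 0.214 CPM, at log2 -0.77 ± 0.30 (edgeR adjusted p = 0.260). Without the pair of d9 libraries that lie apart, the median of the 42 was -0.44 and Hmmr was called (log2 -0.61, adjusted p = 0.0477), and with no filter on low counts Cenpe was called (adjusted p = 0.0363).

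At d5, where acetate covered the whole day of restriction, again none of the 42 genes was called. Over all tested genes, 1.52% (201 of 13182) were called in either direction and 0.865% lower. An unadjusted p under 0.05 was held by 8 of the 42 members and 2612 of the 13182 tested genes, which are similar shares. DESeq2 called 0 members and 726 genes in all. The median log2 fold change was -0.43 over the members and 0.01 over all tested genes, and 38 of 42 were negative, against 48.7% of all. Cdk1, Kif11, Nusap1 and Ttk were the exceptions. The median was -0.29 without replicate 2 of no acetate and -0.58 without its replicate 1. Both acetate libraries lay below both libraries without acetate for 32 of the 42 genes, against 29.2% of all tested genes. With 2 libraries a group such a separation is common, and no test of the share was made.

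Ube2c, Aurka and Plk1 had the smallest p at d5. Ube2c averaged 119 ± 7.63 CPM with acetate and 175 ± 31.8 CPM without (SD, n = 2 each), a log2 fold change of -0.56 ± 0.21 (SE, edgeR adjusted p = 0.185). Aurka averaged 99.1 ± 3.69 CPM and 158 ± 13.5 CPM with and without acetate, at log2 -0.67 ± 0.26 (edgeR adjusted p = 0.194). Plk1 averaged 97.2 ± 9.67 CPM and 184 ± 30.2 CPM, at log2 -0.92 ± 0.35 (edgeR adjusted p = 0.198). In a fit on the 4 d5 libraries alone, whose spread is estimated from those libraries, 18 of the 42 genes were called lower with acetate, among them these 3, with adjusted p = 0.0342 for Ube2c, 0.00984 for Aurka and 0.0084 for Plk1. The same fit called 1701 genes in either direction, and the share of all genes that it called lower is not given here. Without the pair of d9 libraries that lie apart, 2162 genes were called in either direction, of which 2 are members (Aurka and Anln).

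By role, the median log2 fold change at d5, acetate over no acetate, was -0.56 for the chromosomal passenger complex and -0.55 for the motors. It was -0.51 for cytokinesis, -0.48 for the partners of the anaphase-promoting complex and -0.39 for chromosome structure and proliferation marks. The CDK1 kinase and cyclins were at -0.32, centromere and kinetochore at -0.30, spindle assembly at -0.28 and the checkpoint kinases at -0.13. At d9 the medians, in the same order of roles, were -0.25, -0.37, -0.31, -0.26, -0.17, -0.32, -0.16, -0.34 and -0.09. Roles were not tested against each other.

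**Figure D4:**
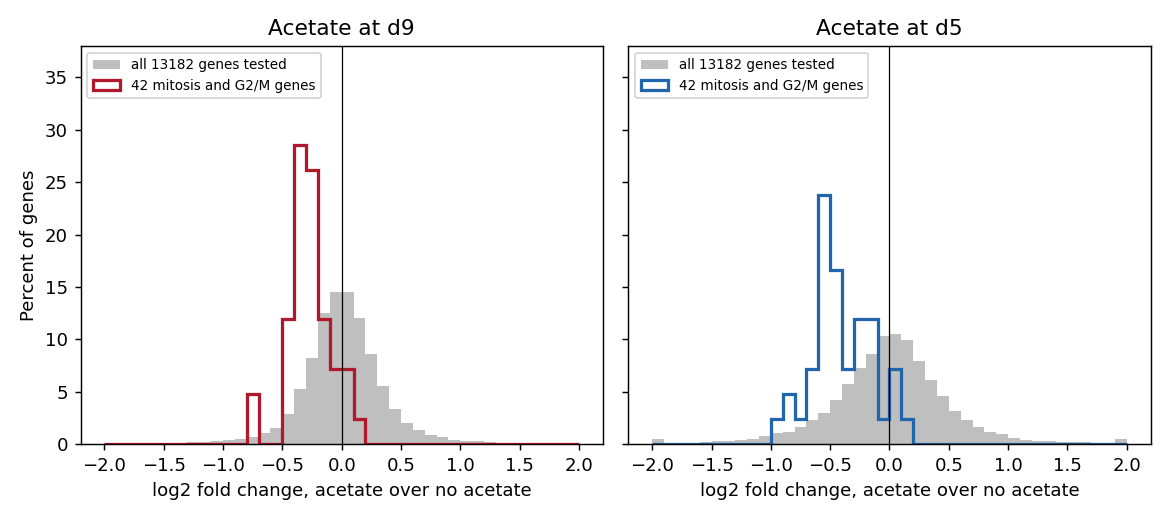
Distribution of log2 fold changes, acetate over no acetate, at d9 (left) and d5 (right), as the percent of genes in each bin. The 42 mitosis and G2/M genes (outline) have medians of -0.29 at d9 and -0.43 at d5, left of all 13182 tested genes (grey), and values of tested genes beyond -2 or 2 are counted in the end bins.

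The acetate effect was not shown to differ between the days for any of the 42 genes. The difference of the effects, d9 minus d5, called 0 of the 13182 genes in the edgeR test, with 1015 at an unadjusted p under 0.05 and 96 called by DESeq2. No member had an unadjusted p under 0.05. The members of smallest p were Nusap1 (log2 -0.44 ± 0.23, SE, edgeR adjusted p = 0.7001), Hmmr (log2 -0.41 ± 0.22, adjusted p = 0.7001) and Ttk (log2 -0.57 ± 0.38, adjusted p = 0.709). For each of the 3, the mean with acetate was below that without at d9. At d5 the mean with acetate was above that without for Nusap1 and Ttk and below it for Hmmr.

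Between the libraries of 1 group, the 42 genes were mostly high or low together. The same counts over all tested genes are not given here, so a shift of these genes cannot be told from one shared by other genes. Within d9 with acetate, replicate 1 was the lowest library for 36 of the 42 genes, while replicate 3 was the highest for 27 and replicate 2 for 14. Within d9 without acetate, replicate 1 was the lowest for 37 and replicate 3 the highest for 41. Within d5 with acetate replicate 1 was the higher for 34, and within d5 without acetate replicate 2 was the higher for 41. The 42 genes are thus not independent readings of a group. The summed level of d9 replicates without acetate ranged over 866 to 1478 CPM.

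Other mitosis genes outside the 42 followed the same direction between the days. Of 73 further genes of the kinetochore, condensin, spindle and mitotic control, 67 were lower and 1 was higher at d9 with acetate, and 69 were lower and 3 higher without, with median log2 fold changes of -1.59 and -1.90. Over all tested genes, 23.1% were called lower and 18.5% higher at d9 with acetate, and 21.2% lower and 15.9% higher without. Depdc1a, a mitotic regulator, and Kif18a, a motor that aligns chromosomes, were among the lowest in both, with log2 fold changes of -3.83 and -3.62 with acetate and -3.90 and -3.73 without. Psrc1, which encodes a protein of spindle microtubules, went the other way in both, at 47.5, 61.4 and 43.1 CPM in the d9 libraries with acetate and 58.7, 46.0 and 37.1 CPM in those without, against 11.1 and 16.4 CPM in the d5 libraries with acetate and 11.3 and 16.1 CPM in those without. Its log2 fold change was 1.88 ± 0.26 with acetate and 1.79 ± 0.26 without (SE, edgeR adjusted p = 3.42e-04 and 5.08e-04). Pttg1, which encodes securin, and Zwint, a kinetochore protein, were higher at d9 without acetate (log2 0.57 and 0.57, edgeR adjusted p = 0.0299 and 0.0213). With acetate their log2 fold changes were 0.03 and -0.09 (adjusted p = 0.890 and 0.667), and the difference between the acetate states was not called (adjusted p = 0.671 and 0.517). Psrc1, Pttg1 and Zwint, and E2f4, Lin37 and Anapc2 below, were named after their values were seen.

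Most regulators of these genes were lower at d9. Of 21 genes of DREAM, MuvB, the E2F factors, NF-Y and FOXM1, 12 were lower and 2 higher at d9 with acetate. Without acetate, 13 were lower and 0 higher. The median log2 fold changes were -0.60 with acetate and -0.46 without. Over all tested genes, 23.1% were called lower with acetate and 21.2% without. E2f4, an E2F factor that recruits repressors, and Lin37, a MuvB subunit, were the pair called higher. Foxm1, the activator of G2 transcription, averaged 14.99 ± 5.51 CPM and 22.1 ± 10.7 CPM at d9 with and without acetate, against 49.3 ± 8.09 CPM and 102 ± 28.4 CPM at d5 with and without acetate (SD). Its log2 fold changes were -1.72 ± 0.41 and -2.20 ± 0.41 (SE, edgeR adjusted p = 0.00797 and 0.00223). E2f2, an E2F factor of the cell cycle, fell by 2.46 on the log2 scale with acetate and by 2.36 without. Of 16 subunits and coactivators of the anaphase-promoting complex, 5 were lower and 2 higher at d9 with acetate. Without acetate, 4 were lower and 1 higher, and the medians were -0.23 with acetate and -0.27 without. The counts called lower are near the shares of all tested genes, 23.1% with acetate and 21.2% without. Over all tested genes, 18.5% were called higher with acetate and 15.9% without. Cdc27, a scaffold subunit, fell most, by 1.22 with acetate and by 1.38 without. Anapc16 was called higher at d9 than at d5 in both acetate states (log2 0.50 and 0.51). Anapc2 was the other gene called higher at d9 than at d5 among the libraries with acetate.

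The inhibitors of cyclin-dependent kinases and the G1 cyclins split in direction. Of 15 tested genes, 7 were higher and 4 lower at d9 with acetate, and 5 were higher and 6 lower without. Over all tested genes, 18.5% were called higher and 23.1% lower with acetate, and 15.9% higher and 21.2% lower without. Cdkn2a, whose locus encodes p16 and p19ARF in mouse, was at 99.1, 134 and 114 CPM in the d9 libraries with acetate and 112, 94.3 and 100.3 CPM in those without, against 21.6 and 11.8 CPM in the d5 libraries with acetate and 21.0 and 17.0 CPM in those without. Its log2 fold change was 2.79 ± 0.25 with acetate and 2.43 ± 0.24 without (SE, edgeR adjusted p = 2.71e-05 and 4.94e-05), and every d9 library was above every d5 library. Cdkn2b, which encodes p15, averaged 58.8 ± 4.69 CPM and 69.0 ± 3.34 CPM at d9 with and without acetate, against 10.1 ± 5.52 CPM and 8.66 ± 4.06 CPM at d5 with and without acetate (SD). Cdkn2c, which encodes p18, fell by 1.55 with acetate and by 1.95 without on the log2 scale, and Ccne2, the gene of cyclin E2, by 3.51 and 3.64. Of 43 genes of DNA replication and S phase, 38 were lower with acetate and 37 without, and none was higher, with medians of -1.12 in both. Pola1, a subunit of DNA polymerase alpha, fell by 2.97 with acetate and by 2.75 without.

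Few genes of these other lists were called for acetate. At d5, Anapc2, the cullin subunit of the anaphase-promoting complex, and Cdkn2c were lower with acetate. Anapc2 averaged 69.3 ± 6.80 CPM with acetate and 106 ± 1.30 CPM without (SD, n = 2 each), at log2 -0.61 ± 0.11 (SE, edgeR adjusted p = 0.0336). The same d5 acetate libraries enter its difference between d9 and d5 with acetate. Cdkn2c averaged 27.6 ± 0.894 CPM with acetate and 53.1 ± 12.4 CPM without, at log2 -0.95 ± 0.19 (adjusted p = 0.0411). At d9 none of the tested genes in the 5 lists was called in the edgeR test, and the smallest adjusted p was 0.167, for Anapc11.

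**Figure D5:**
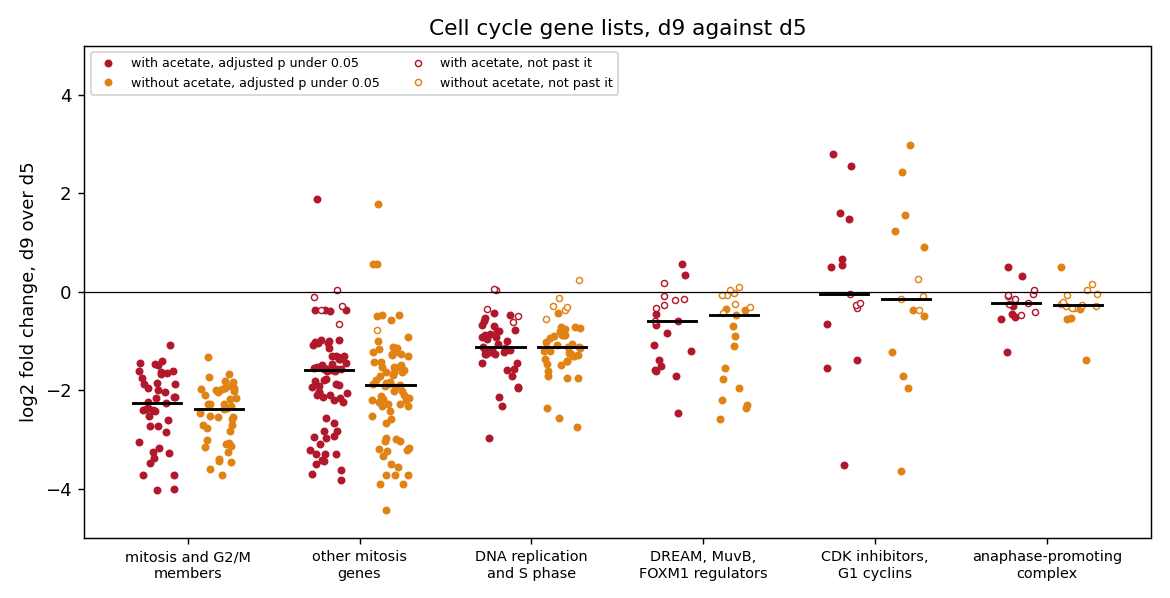
Log2 fold change, d9 over d5, of each tested gene of the 42 mitosis and G2/M genes and of 5 other cell cycle lists, with acetate (red) and without (orange), where filled points have an edgeR adjusted p under 0.05 and the black bar is the list's median. The medians of the 42 genes are -2.25 and -2.38, those of the replication list -1.12 in both, and the inhibitors and G1 cyclins lie on both sides of 0.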

How the data were processed

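Stranded mRNA libraries were sequenced on an Illumina instrument, per the labels' protocols. The authors deposited 1 file per library of whole-number counts of reads per gene, with no normalization. STAR, featureCounts, deepTools and DESeq2, and the build GRCm38, are named per the submitters' processing notes (versions and settings: not given in the sources used here). Of 53465 gene identifiers, 53360 matched the annotation used for symbols. Depth was 16588023 to 24659226 counts a library. All 10 libraries were grouped by their labels.

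Low counts were removed with filterByExpr by group, TMM factors were computed, and the 4 group means were fitted with the quasi-likelihood model of edgeR 4.0.16 (R 4.3.3, robust, 6 residual degrees of freedom, biological coefficient of variation 0.161). The 5 comparisons set d9 against d5 with and without acetate, acetate against no acetate at d9 and at d5, and both acetate effects against each other. P-values were adjusted by Benjamini-Hochberg over all 13182 tested genes, with a threshold of 0.05. CPM are per 1000000 counts after TMM scaling. Every SE, in the text or as a figure bar, was worked back from the quasi-likelihood F statistic of its comparison. It is the value at which the ratio of log2 fold change to SE, once squared, gives that F. It is not an SE that edgeR estimated. Changes are relative to the bulk of transcripts, so a change in total RNA per cell would not be seen. The code was tested on simulated counts with changes set in randomly chosen genes. Changes of 1.5-fold were recovered for 19.4% of these genes for acetate at d9, 7.46% at d5 and 2.99% for the difference of effects. Changes of 2-fold were recovered for 62.7%, 49.3% and 23.9%. Small acetate effects could therefore go uncalled.

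The members and lists were chosen with earlier results of these data known, so counts and medians describe them and no list was tested. Given in full were the 6 members of largest change past the threshold per comparison, the 3 of smallest p where fewer than 3 passed, and 12 well known members. Of other lists, genes were drawn from the 4 of largest change past the threshold, or the 2 of smallest p, and 6 genes named on another ground are marked in the text. Same-numbered libraries were checked for pairing, which 2 or 3 libraries a group cannot decide, and the reported fit used no pairing. Levels per length use the merged exons of each gene. Alternatives were DESeq2 size factors, other filters, the DESeq2 1.42.0 Wald test, a fit restricted to the groups of a comparison, a block for the replicate number, leaving out each library, and leaving out both d9 libraries that lie apart. No group has the 4 samples that a test for outlying samples needs.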

Additional observations from a re-analysis of the deposited data

How the results depend on the processing

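All 42 genes were lower at d9 without acetate in all 17 alternatives, and 41 of 42 with acetate, the exception being Kif18b. The medians of the 42 moved by less than 0.263, the SD between libraries of a group of their median log2 deviation over the 42 genes. Leaving out 1 library gave mean sums of 894 to 1095 CPM at d9 with acetate and 1017 to 1330 CPM without. The d5 sums were 3811 to 4356 CPM with acetate and 4900 to 5941 CPM without. With 2 or 3 libraries a group, leaving out 1 moves a mean by less than 1 SD whatever the values, so these ranges do not test stability. When 1 library was left out, the median acetate effect ranged over -0.43 to -0.08 at d9 (-0.29 with all) and -0.58 to -0.29 at d5 (-0.43 with all). The median difference of effects, 0.14 with all, ranged over 0.03 (without d9 replicate 1 of no acetate) to 0.35 (without its replicate 3), and was 0.00 without both d9 libraries that lie apart. Members called for acetate at d9 went to 1 with no filter and 1 without both of those libraries, and at d5 to 18 with only the libraries compared and 2 without both. Counts over all genes depended more on the setting, and the cause was not tested. For acetate at d9 they were 4 as reported, 197 with no filter, 310 with DESeq2 and 213 without both d9 libraries. At d5 they were 201, 578 with no filter, 726 with DESeq2, 1701 with only the libraries compared, 62 with the replicate block and 2162 without both. For the difference of effects they were 0, 99 with no filter, 96 with DESeq2 and 255 without both. Leaving out 1 library gave 0 to 18 genes for acetate at d9 (18 without d9 replicate 1 of no acetate, 0 without its replicate 3, 2 without its replicate 2 or either d5 library without acetate). It gave 0 to 498 at d5 (498, 69 and 76 without d9 replicates 1, 2 and 3 of no acetate, 317 without d9 acetate replicate 2, 10 and 0 without d5 replicates 1 and 2 of no acetate, and 0 without either d5 acetate library). It gave 3108 to 6048 for d9 against d5 with acetate (3108 and 3637 without d5 acetate replicates 1 and 2), 2803 to 5425 without acetate (2947 and 2803 without d5 replicates 1 and 2), and 0 to 1 for the difference of effects (1 without d9 replicate 1 of no acetate or d9 acetate replicate 3). Whether the replicate numbers pair the libraries was not settled. Deviations of same-numbered libraries from their group means correlated at 0.036 at d5 and at -0.0828, -0.294 and 0.277 at d9. With 2 or 3 libraries a group these deviations constrain each other, so the check cannot decide. The replicate block changed no member's call. Both the number of libraries (2 or 3 a group) and, for the lowest members, depth limit precision: the lowest member count was 15 reads (Cenpf).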
